A study of Mus musculus with 9 samples.

Results

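The genes described here are 7 genes of zinc buffering and zinc and manganese transport in the mouse liver: the metallothioneins Mt1 and Mt2, the metal-responsive transcription factor gene Mtf1, the importer genes Slc39a14 and Slc39a4, and the exporter genes Slc30a1 and Slc30a10. They were chosen by gene name, with earlier results of these data known, and all 7 were found among the 17046 genes listed in the deposited tables and among the 16266 genes that both tables list. RNA sequencing of whole liver gave 9 libraries in 3 groups of 3. The study design states that wild-type mice received, through the tail vein, an AAV8 virus with the hepatocyte-directed TBG promoter and WPRE, carrying either an MCS-3×FLAG control insert or Mettl3-3×FLAG. METTL3 is the catalytic subunit of the enzyme complex that writes N6-methyladenosine on RNA. After 3 weeks the mice ate a control or an ethanol diet for 10 days and then took a single dose of maltose (controls) or ethanol. The groups are pair-fed livers with the control virus (labelled WT), control-virus ethanol-fed livers (labelled WT), and Mettl3-virus ethanol-fed livers (labelled Mettl3 overexpression). The sample titles name no virus, no pair-fed Mettl3-virus group is analysed here, and the labels give neither age, sex nor a batch. Replicates carry numbers but no animal names, so the p-values measure the spread between these libraries, which are called livers below.

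Metallothioneins are small cysteine-rich proteins that bind zinc and copper in the cytosol. Free zinc activates MTF-1, the product of Mtf1, which binds metal response elements in the promoters of Mt1, Mt2 and Slc30a1, and metallothionein genes in the liver also respond to glucocorticoids and to interleukin-6. ZIP14, the product of Slc39a14, brings zinc, manganese and iron into hepatocytes and is a known acute-phase gene of the liver, ZIP4 (Slc39a4) is best known for zinc uptake in the intestine, ZnT1 (Slc30a1) exports zinc across the plasma membrane, and ZnT10 (Slc30a10) exports manganese.

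Mt1 and Mt2 lie next to each other on chromosome 8, and the sequences upstream of them are shown because these 2 genes had the largest changes of the 7. That of Slc30a10 is shown beside them because it held 3 matches to the same motif, more than Slc30a1, the other transporter gene with a window. The windows are RefSeq promoter sequences on build GRCm38.p6, from 250 bases before to 30 bases after the start that the promoter table gives, all on the plus strand. They cover chr8:94178839-94179118 for Mt1, chr8:94172368-94172647 for Mt2 and chr1:185454598-185454877 for Slc30a10. Capitals mark every match to the metal response element core, searched as TGCGCNC and TGCACNC on both strands, so that a match on the opposite strand appears as its reverse complement.
Mt1: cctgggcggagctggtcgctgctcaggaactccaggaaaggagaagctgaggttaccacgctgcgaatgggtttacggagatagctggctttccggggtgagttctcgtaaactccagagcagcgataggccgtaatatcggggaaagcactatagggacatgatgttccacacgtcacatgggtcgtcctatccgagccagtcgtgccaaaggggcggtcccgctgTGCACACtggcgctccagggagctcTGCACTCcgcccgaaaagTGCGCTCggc
Mt2: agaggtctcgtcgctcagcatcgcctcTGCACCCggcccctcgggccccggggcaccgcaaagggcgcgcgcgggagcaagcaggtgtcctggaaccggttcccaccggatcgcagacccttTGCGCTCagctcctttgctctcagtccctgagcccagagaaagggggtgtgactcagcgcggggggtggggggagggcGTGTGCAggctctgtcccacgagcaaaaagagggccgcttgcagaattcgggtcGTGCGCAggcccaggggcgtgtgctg
Slc30a10: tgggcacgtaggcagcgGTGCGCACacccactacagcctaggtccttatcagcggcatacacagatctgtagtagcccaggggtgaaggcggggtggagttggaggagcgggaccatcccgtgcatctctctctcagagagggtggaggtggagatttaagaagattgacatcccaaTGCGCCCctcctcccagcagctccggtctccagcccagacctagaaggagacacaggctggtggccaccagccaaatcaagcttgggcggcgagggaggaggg
The Mt1 window held 3 matches, the Mt2 window 4 and the Slc30a10 window 3, of which the first and the second overlap on opposite strands. Windows were found for 5 of the 7 genes, and none for Slc39a14 or Slc39a4. The Slc30a1 window (chr1:191906531-191906810) held 1 match and the Mtf1 window (chr4:124802299-124802578) held 0. Among all 32851 windows of the same length, 24.1% held at least 1 match, 1.73% at least 3 and 0.405% at least 4. A match is a description of the letters in these windows. RefSeq gives the Mt1 and Slc30a1 genes spans that begin before the starts used for their windows, so another choice of start would shift the windows. The windows also hold nothing beyond 30 bases after these starts. If transcription of Mt1 or Mt2 in liver starts further downstream, which was not tested, elements close to that start lie outside the windows, and the counts and positions hold for these windows only.

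**Figure D1:**
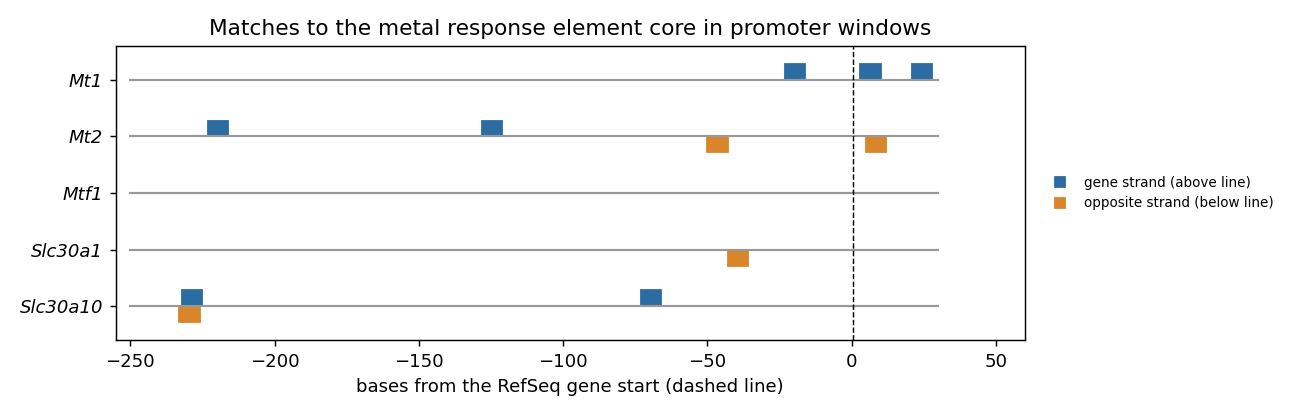
Matches to the metal response element core in 5 promoter windows, with the distance in bases from the RefSeq start on the x axis and 1 line per gene; boxes above a line are on the gene's strand and boxes below it on the opposite strand. The 3 Mt1 matches lie between 23 bases before and 27 bases after the start, and the Mtf1 line carries none.

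Levels are given as FPKM, a read count divided by the length of the gene and by the depth of the library. Between 34656480 and 38159563 reads per library fell on listed genes. Mettl3 itself had a median of 33.3 FPKM with the Mettl3 virus (lowest 24.98), against medians of 3.38 in pair-fed and 4.86 in ethanol-fed livers under the control virus (highest 5.44). The hepatocyte markers summed to 66792 to 74604 FPKM in pair-fed livers, 55274 to 75203 in ethanol-fed livers and 49232 to 60169 with the Mettl3 virus, with 11 of the 12 markers listed. Alb made up most of that sum in each liver. Kupffer cell markers, all 12 listed, summed to 338 to 385, 186 to 275 and 163 to 287 FPKM in the same order of groups, and neutrophil markers, 7 of 8 listed, to 7.46 to 11.6, 9.32 to 74.0 and 49.0 to 105. The marker counts with ethanol stand beside 10.0% of all 10064 genes tested called higher and 26.0% lower, with a median log2 difference of -0.14. Of 11 hepatocyte markers tested with ethanol, 4 were called higher and 1 lower, with a median of -0.06. The hepatocyte count higher was 2 without pair-fed liver 1 or 2, and the count lower was 2 without ethanol-fed liver 1. With ethanol 9 of 12 Kupffer cell markers were called lower and 1 higher (median -0.58; 2 lower without pair-fed liver 2 or 3; 0 higher without pair-fed liver 1 or 3 or ethanol-fed liver 2). Of the sinusoidal endothelial markers, 6 of 9 tested were called lower and 1 higher (median -0.49; 2 lower without pair-fed liver 2 or 3, 3 lower without pair-fed liver 1, ethanol-fed liver 2 or 3, or with median-ratio scaling). Of 9 stellate cell markers tested 4 were called lower (median -0.50; 1 without pair-fed liver 2 or with median-ratio scaling, 2 without liver 3 of either diet or with no filter). Of 4 neutrophil markers tested 1, S100a8, was called higher (4 without ethanol-fed liver 1, 0 without any other of the 6 libraries). The neutrophil count was also 0 with no filter and with limma-voom on reads recovered from the FPKM. S100a8 in ethanol-fed liver 1, at 2.94 FPKM, lay inside its pair-fed range of 1.02 to 3.29. Of 8 acinar cell markers of the pancreas 2 were listed, summing to at most 5.99 FPKM. In whole liver, fewer cells of a type and less RNA per cell cannot be told apart, and the part of these markers in the results below was not tested.

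In ethanol-fed against pair-fed livers with the control virus, Mt1 rose to a mean of 1098 from 50.1 FPKM and Mt2 to 1695 from 57.0 FPKM. The transporter genes Slc39a14 and Slc30a10 also rose, with ratios of means of 2.54 and 1.82. Differences were tested with limma on log2(FPKM + 1) over all genes with at least 1 FPKM in at least 3 of the libraries fitted, with Benjamini-Hochberg adjustment over all genes tested, and a gene is called at an adjusted p below 0.05. All 7 genes passed the filter in each comparison. In all, 4 of the 7 genes rose with ethanol, 0 fell and 3 were not called. Over all 10064 genes tested, 10.0% were called higher and 26.0% lower. The groups did not overlap for 5 of the 7 genes, all higher with ethanol, where 15.4% of all genes tested had groups that did not overlap in the higher direction and 37.2% in the lower. The median log2 difference of the 7 genes was 0.80 and that of all genes tested -0.14. Since the 7 genes were chosen with earlier results of these data known, their contrast with all genes is a description only. Scaling the libraries to their median ratio moved the median of all genes to 0.01 and the calls from 1009 higher and 2616 lower to 1773 higher and 1680 lower. All 7 genes kept a positive difference in that comparison under that scaling.

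**Figure D2:**
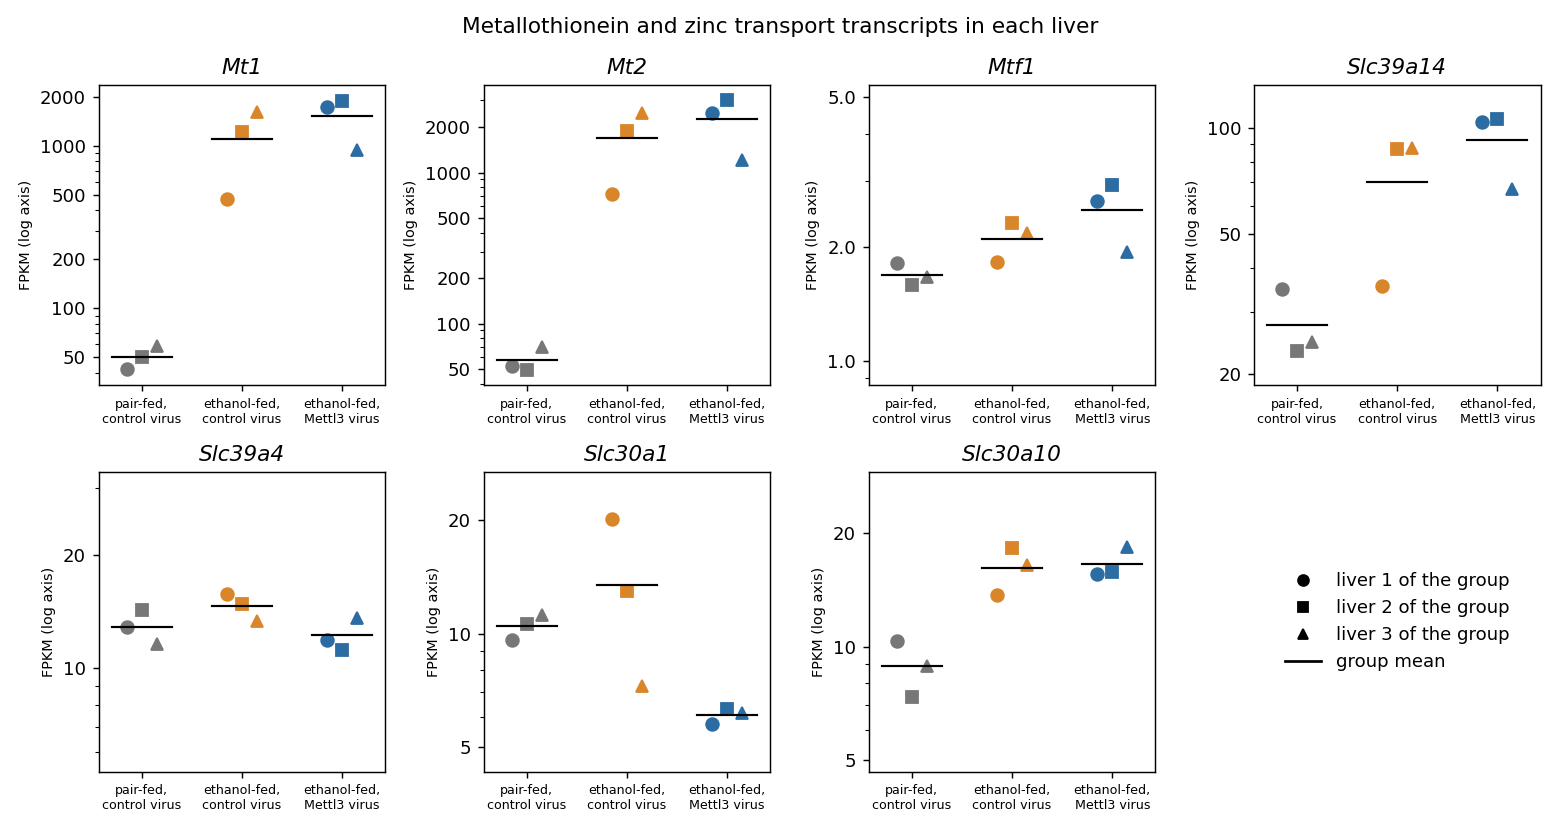
FPKM of the 7 genes in each of the 9 livers on log axes; each panel is 1 gene, each point 1 liver with its shape giving the replicate number, and the line is the group mean (n = 3). Mt1 and Mt2 in every ethanol-fed liver lie above every pair-fed liver, and Slc30a1 with the Mettl3 virus lies below all other livers.

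Mt1 (Entrez 17748) and Mt2 (Entrez 17750), on the plus strand of chromosome 8 at 94178883 to 94180327 and 94172618 to 94173567 with 5315 bases between them, were the most changed of the 7 genes (all gene positions are from RefSeq on GRCm38.p6). Mt1 read 42.1, 49.9 and 58.1 FPKM in pair-fed livers 1 to 3, then 469.6, 1207 and 1618 in ethanol-fed livers 1 to 3 with the control virus. With the Mettl3 virus it read 1725, 1888 and 936 FPKM. Every ethanol-fed liver of either virus was above every pair-fed liver, ethanol-fed liver 1 was the lowest of its group, and liver 3 was the lowest of the Mettl3 group. The means were 50.1 ± 8.02, 1098 ± 582 and 1517 ± 509 FPKM (SD, n = 3 each). On the log2(FPKM + 1) scale Mt1 rose by 4.26 with ethanol (SE 0.42, limma adjusted p = 0.00107), a ratio of means of 21.9. In the authors' deposited table the fold of Mt1 was 25.8 (q = 1.13e-17).

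Mt2 read 52.2, 49.0 and 69.9 FPKM in pair-fed livers 1 to 3. It read 726, 1872 and 2487 FPKM in the control-virus ethanol-fed livers, and 2492, 3039 and 1215 with the Mettl3 virus. The order of the livers within both ethanol-fed groups was that of Mt1, with control-virus liver 1 and Mettl3 liver 3 lowest. The means were 57.0 ± 11.2, 1695 ± 894 and 2249 ± 936 FPKM (SD, n = 3 each). Mt2 rose by 4.71 with ethanol (SE 0.42, limma adjusted p = 0.000841), a ratio of means of 29.7, and had a fold of 34.9 in the authors' deposited table (q = 1.58e-20). Both calls held under all 13 alternatives tried, with adjusted p from 5.17e-05 to 0.0101 for Mt1 and to 0.00911 for Mt2.

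Together the reads of Mt1 and Mt2 made up 0.00947% ± 0.00155 of all library reads in pair-fed livers, 0.232% ± 0.123 in control-virus ethanol-fed livers and 0.316% ± 0.116 with the Mettl3 virus (SD, n = 3 each). The lowest ethanol-fed liver had 0.0995% and the highest pair-fed liver 0.0112%. The Mt2 to Mt1 ratio of FPKM was 1.24, 0.982 and 1.202 in pair-fed livers, 1.55, 1.55 and 1.54 in control-virus ethanol-fed livers and 1.44, 1.61 and 1.30 with the Mettl3 virus, so that every ethanol-fed liver was above every pair-fed liver. That ratio was not tested. Which gene reads higher depends on the unit, since FPKM used a length of 1258 bases for Mt1 and 556 for Mt2, and in reads Mt1 was the larger in all 9 livers, with Mt2 at 0.434 to 0.711 of it. The main annotated transcripts, 549 bases for Mt1 and 511 for Mt2, share 70.1% of their aligned bases and no identical stretch longer than 20 bases. An annotated antisense gene, Gm45774, covers 432 exon bases of Mt2, and without a stated strand setting reads from the 2 strands cannot be told apart.

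Mtf1 (Entrez 17764, chromosome 4, 124802549 to 124849800, plus strand) had the lowest level of the 7 genes in every group. It read 1.816, 1.59 and 1.67 FPKM in pair-fed livers 1 to 3, 1.822, 2.31 and 2.18 in control-virus ethanol-fed livers, and 2.65, 2.92 and 1.94 with the Mettl3 virus. Ethanol-fed liver 1 and pair-fed liver 1 were almost level, and every ethanol-fed liver was above every pair-fed one. The difference with ethanol was 0.20 (SE 0.10), which was not called (limma adjusted p = 0.146), and it was called without ethanol-fed liver 1 (0.27, adjusted p = 0.0479). The authors' deposited table gave Mtf1 a fold of 1.43 (q = 0.0261). The coding gene 1110065P20Rik shares 721 exon bases with Mtf1 on the opposite strand. It had 208 to 451 reads per liver, against 448 to 827 for Mtf1, and its part in the Mtf1 level was not tested.

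Among the importers, Slc39a14 (Entrez 213053, chromosome 14, 70303467 to 70351452, minus strand) was the most abundant transporter gene of the 7 in each group. It read 34.9, 23.3 and 24.6 FPKM in pair-fed livers 1 to 3, 35.5, 87.3 and 87.8 in control-virus ethanol-fed livers, and 103.5, 105.8 and 66.9 with the Mettl3 virus. Ethanol-fed liver 1 stood just above the highest pair-fed liver, and the other 2 of its group were far above both. The means were 27.6 ± 6.33, 70.2 ± 30.03 and 92.1 ± 21.8 FPKM (SD, n = 3 each). Slc39a14 rose by 1.23 with ethanol (SE 0.35, limma adjusted p = 0.0307) and had a fold of 2.97 in the authors' deposited table (q = 3.09e-05). This rise was no longer called when pair-fed liver 2 (adjusted p = 0.114) or 3 (0.101) was left out, without ethanol-fed liver 2 (0.0909) or 3 (0.0976) and with no filter on low values (0.0551), while leaving out ethanol-fed liver 1 gave 1.65 (adjusted p = 0.000683).

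Slc39a4 (Entrez 72027, chromosome 15, 76612383 to 76618506, minus strand) read 12.9, 14.2 and 11.6 FPKM in pair-fed livers 1 to 3, 15.8, 14.8 and 13.4 in control-virus ethanol-fed livers, and 11.9, 11.2 and 13.6 with the Mettl3 virus. The 3 groups overlapped. The difference with ethanol was 0.17 (SE 0.11, 95% confidence interval -0.09 to 0.43), which was not called (limma adjusted p = 0.256). With median-ratio scaling it was 0.35 (adjusted p = 0.0266), and the authors' deposited table gave Slc39a4 a fold of 1.29 (q = 0.0259).

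Of the exporters, Slc30a10 (Entrez 226781, chromosome 1, 185454848 to 185468762, plus strand) rose with ethanol and Slc30a1 was not called. Slc30a10 read 10.3, 7.37 and 8.89 FPKM in pair-fed livers 1 to 3, 13.7, 18.2 and 16.5 in control-virus ethanol-fed livers, and 15.6, 15.7 and 18.4 with the Mettl3 virus. Each ethanol-fed liver was above each pair-fed one, and the 2 ethanol-fed groups overlapped. The means were 8.86 ± 1.47, 16.1 ± 2.29 and 16.6 ± 1.58 FPKM (SD, n = 3 each). The rise with ethanol was 0.80 (SE 0.15, limma adjusted p = 0.00755), and the call held under all 13 alternatives. A long noncoding gene on the opposite strand, Gm2061, shares 533 exon bases with Slc30a10 and had 19 to 137 reads per liver, against 1590 to 4096 for Slc30a10.

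Slc30a1 (Entrez 22782, chromosome 1, 191906697 to 191913248, plus strand) had its widest spread in the control-virus ethanol-fed livers. It read 9.60, 10.6 and 11.2 FPKM in pair-fed livers 1 to 3, 20.1, 13.0 and 7.27 in control-virus ethanol-fed livers, and 5.75, 6.31 and 6.17 with the Mettl3 virus. Ethanol-fed liver 1, the lowest of its group for Mt1, Mt2 and Slc39a14, was the highest for Slc30a1, and liver 3, the highest of its group for both metallothioneins, was the lowest. The ethanol-fed group with the control virus lay on both sides of the pair-fed group, and the Mettl3 livers lay below all 6 others. The means were 10.5 ± 0.805, 13.5 ± 6.44 and 6.08 ± 0.293 FPKM (SD, n = 3 each). The difference with ethanol was 0.24 (SE 0.30, 95% confidence interval -0.47 to 0.94, limma adjusted p = 0.564), and it was -0.09 without ethanol-fed liver 1. An annotated antisense gene, 1700034H15Rik, shares 468 exon bases with Slc30a1 and had 5 to 27 reads per liver, against 1154 to 3738 for Slc30a1.

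The order of the 7 levels in FPKM was Mt2, Mt1, Slc39a14, Slc39a4, Slc30a1, Slc30a10 and Mtf1 in pair-fed livers. In both ethanol-fed groups Slc30a10 stood above Slc39a4 and Slc30a1. Mt2 and Mt1 overlapped in every group, as did Slc30a1 and Slc30a10 in pair-fed livers. Slc30a10 overlapped Slc39a4, and Slc39a4 overlapped Slc30a1, in control-virus ethanol-fed livers. With the Mettl3 virus no neighbours in the order other than Mt2 and Mt1 overlapped.

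The Mettl3 virus was compared with the control virus in ethanol-fed livers, the question the study title names. Of the 7 genes 0 were called by limma and 1, Slc30a1, had an unadjusted p below 0.05; limma-voom on reads recovered from the FPKM also called 0. Over all 9706 genes tested, 0.0103% were called higher (1 gene, Mettl3 itself) and 0% lower, and 723 genes had an unadjusted p below 0.05. Slc30a1 differed by -0.93 (SE 0.31, 95% confidence interval -1.66 to -0.20, limma adjusted p = 0.641), at a ratio of means of 0.451. All 3 Mettl3 livers were below all 3 control-virus livers for Slc30a1, where 6.62% of all genes tested had groups that did not overlap in the lower direction and 6.17% in the higher. The authors' deposited table gave Slc30a1 a fold of 0.492 (q = 0.0767). The difference was -0.61 when ethanol-fed liver 1 was left out and -1.28 when its group lacked liver 3, the ends of its range over the 6 libraries left out in turn.

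The other 6 genes overlapped between the viruses. The median difference of the 7 genes was 0.17 and that of all genes tested -0.04. The intervals were wide for the metallothioneins, at 0.58 (95% confidence interval -0.56 to 1.71) for Mt1 and 0.48 (-0.74 to 1.70) for Mt2, so that changes of more than 2-fold lie inside both. Slc39a14 differed by 0.47 (-0.41 to 1.34), Mtf1 by 0.17 (-0.17 to 0.50) and Slc39a4 by -0.24 (-0.53 to 0.05). Slc30a10 differed least, by 0.04 (-0.29 to 0.37). Their limma adjusted p ran from 0.641 to 0.931, and their q in the authors' deposited table from 0.753 to 0.93. Without ethanol-fed liver 1 the difference of Mt1 was 0.05, that of Slc39a14 0.04 and that of Mt2 -0.04.

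**Figure D3:**
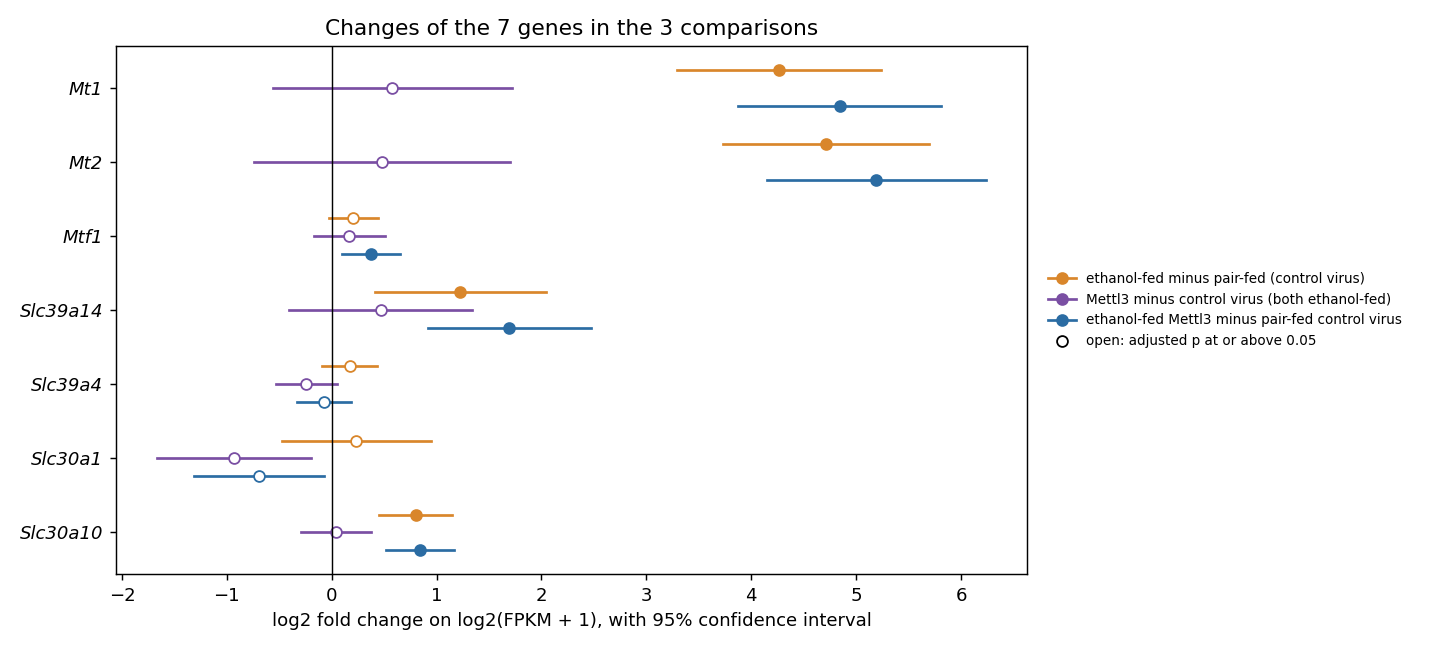
Log2 fold changes of the 7 genes on log2(FPKM + 1), with 95% confidence intervals from limma, in the 3 comparisons given by colour; filled points have an adjusted p below 0.05 and the vertical line marks 0. The 4 genes called with ethanol are Mt1, Mt2, Slc39a14 and Slc30a10, and all points of the comparison between viruses are open.

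Ethanol-fed livers with the Mettl3 virus were also set beside the pair-fed livers with the control virus, groups that differ in both diet and virus. This comparison shares the pair-fed livers with the first and the Mettl3 livers with the second, so it adds no independent evidence. In the fit of all 9 libraries 5 of the 7 genes were higher, 0 were lower and 2 were not called, where 13.9% of the 10229 genes tested were called higher and 34.9% lower. The median difference was 0.84 for the 7 genes and -0.18 for all genes. With median-ratio scaling the median of all genes was 0.03 and the split over all genes went from 1424 higher and 3572 lower to 2587 higher and 2212 lower. The groups did not overlap for 6 of the 7 genes, 5 higher and Slc30a1 lower, where 19.3% of all genes tested did not overlap in the higher direction and 44.2% in the lower.

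Mt1 was higher by 4.84 (limma adjusted p = 0.000212), Mt2 by 5.19 (0.000212), Slc39a14 by 1.69 (0.00445) and Slc30a10 by 0.84 (0.00227). Mtf1, the gene of the zinc sensor, was higher by 0.37 (SE 0.12, adjusted p = 0.0316). The Mtf1 call was lost without pair-fed liver 1 (0.0559), 2 (0.0992) or 3 (0.0846) and without Mettl3 liver 1 (0.0993) or 2 (0.112). Its overlapping neighbour 1110065P20Rik was higher by 0.70 (adjusted p = 0.00399), and Gm2061, which overlaps Slc30a10, by 0.68 (0.00427). Gm2061 was below 1 FPKM in every pair-fed liver and passed the filter only through the ethanol-fed groups. Slc30a1 differed by -0.69 (SE 0.27) and was not called (limma adjusted p = 0.0606). It was called lower in a fit of only the 6 libraries of these groups (adjusted p = 0.00201), and in the fit without ethanol-fed liver 1 (0.0117) or 3 (0.00753), where the difference itself stayed at -0.69. Slc39a4 differed by -0.07 (adjusted p = 0.623), and by 0.18 with median-ratio scaling.

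The livers of 1 group did not all carry the same metallothionein level, and other transcripts varied over the same livers. The summed FPKM of Mt1 and Mt2 was 1196 in ethanol-fed liver 1 against 3080 and 4105 in livers 2 and 3 of that group, and 2152 in Mettl3 liver 3 against 4218 and 4927. The 16 genes of an interleukin-6 and STAT3 target list (among them the acute-phase genes Hp and Fgb, which make up most of the sum) summed to 10206 FPKM in ethanol-fed liver 1 against 21521 and 21853, and to 20044 in Mettl3 liver 3 against 26520 and 28125. In pair-fed livers the order was not shared: liver 1 had the highest sum of that list (8512, against 5887 and 5653) and the lowest summed FPKM of Mt1 and Mt2 (94.3, against 98.9 and 128.0). Neutrophil markers summed to 9.32 FPKM in ethanol-fed liver 1 and to 67.6 and 74.0 in the other 2. Of the 15 genes of the interleukin-6 list tested, 6 were called higher and 1 (Pim1) lower with ethanol, with a median of 0.92 (all genes: 10.0% higher, 26.0% lower, median -0.14). The count higher was 13 without ethanol-fed liver 1. It was 2 or 3 without pair-fed liver 2 or 3, respectively. The part of these genes in the metallothionein levels was not tested.

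**Figure D4:**
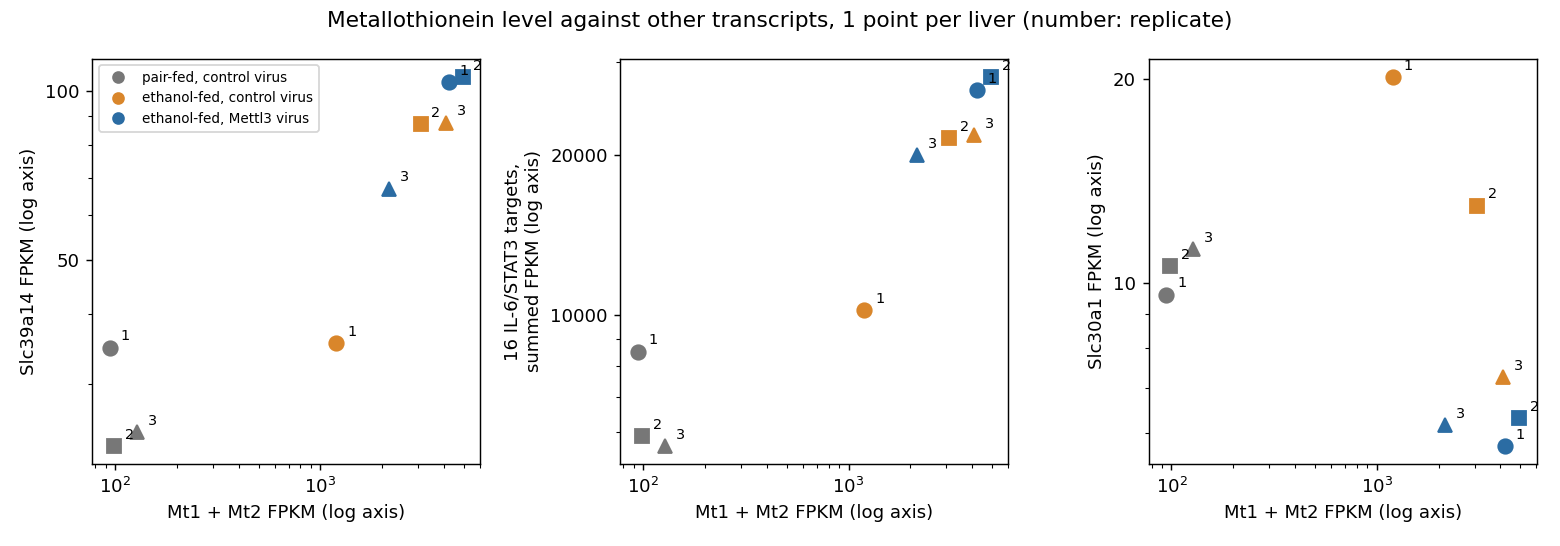
Summed Mt1 and Mt2 FPKM (x, log axis) against Slc39a14 FPKM, the summed FPKM of 16 interleukin-6 and STAT3 targets and Slc30a1 FPKM (y, log axes), 1 point per liver, colour for the group and the number for the replicate. Ethanol-fed liver 1, at 1196 FPKM of Mt1 and Mt2, is the lowest ethanol-fed liver in the first and second panels and the highest of all livers in the third.

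Likeness between profiles was measured as the root mean square difference of log2(FPKM + 1) over the 9 livers, each gene centred on its own mean; it is a description and was not tested. The closest pair among the 7 genes was Mt1 and Mt2, at 0.222. Outside the 7, and leaving out predicted genes, the 5 closest to Mt1 were Serpina3n (0.606), Orm2 (0.61), Nnmt (0.796), B3galt1 (0.803) and Sdf2l1 (0.838). Those closest to Mt2 were Orm2 (0.654), Serpina3n (0.774), Lcn2 (0.822), Nnmt (0.962) and B3galt1 (0.97). The root mean square of Mt1 itself around its mean was 2.22 and that of Mt2 2.41. Slc39a14, which varied by 0.826, lay nearest to Fgb (0.106), Fgg (0.127), Itih4 (0.15), Bag3 (0.151) and Ficd (0.174). For Slc30a10, which varied by 0.415, the nearest were St3gal1 (0.093), Tnfrsf1a (0.109), Polr2l (0.128), Lrig1 (0.135) and Pdgfra (0.153). Mtf1 varied by only 0.194, and Zfp790 (0.0383), Zmym1 (0.0389), Zfp780b (0.0539), Atf2 (0.0543) and Apaf1 (0.0544) lay nearest to it. Of these, Zfp790, Zmym1, Zfp780b and Apaf1 had group means between 0.673 and 1.47 FPKM. At such low levels the 1 added to FPKM makes differences on this scale smaller.

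The other metallothionein genes, Mt3 and Mt4, are in neither table as given here. Of the 12 other ZIP importer genes, 8 were tested with ethanol, and 1 was called higher, 2 lower and 5 not, with a median of -0.08 beside -0.14 over all genes (10.0% called higher and 26.0% lower). Slc39a7, which releases zinc from the endoplasmic reticulum, rose by 0.60 (SE 0.14, limma adjusted p = 0.0185), from 26.5 ± 3.06 to 40.8 ± 7.08 FPKM (SD, n = 3). Slc39a5 fell by 0.84 (adjusted p = 0.00125), from 1.70 to 0.506 FPKM, and Slc39a8, an importer of zinc and manganese close in sequence to Slc39a14, fell by 0.72 (adjusted p = 0.0133), from 4.82 to 2.57 FPKM. Slc39a5 was below 1 FPKM in every ethanol-fed liver of either virus and passed the filter only through the pair-fed livers. It was therefore not tested when a pair-fed liver was left out, which lowers the count below. The count higher was 2 with median-ratio scaling, 0 without pair-fed liver 2 or 3 and 2 without ethanol-fed liver 3, and the count lower was 1 without pair-fed liver 1 or 2 and 0 without pair-fed liver 3. Of 9 other genes of zinc export from the cytosol (ZnT genes and Tmem163), 5 were tested, and 2 were called higher and 0 lower, with a median of 0.33. These were Slc30a5 (0.97, adjusted p = 0.0357, from 10.7 to 23.2 FPKM) and Slc30a7 (0.45, adjusted p = 0.0299, from 2.13 to 3.29 FPKM), whose products carry zinc into the secretory pathway. That count was 1 with no filter on low values or with all 9 libraries in 1 fit, and 0 without pair-fed liver 1, 2 or 3 and without ethanol-fed liver 2 or 3. Between the viruses 0 of 8 importer and 0 of 5 exporter genes were called by limma, or by limma-voom; 2 importers, Slc39a1 (0.44, limma adjusted p = 0.641) and Slc39a9 (0.40, adjusted p = 0.641), and 0 exporters had an unadjusted p below 0.05. Among all 9706 genes tested in that comparison 723 did.

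**Figure D5:**
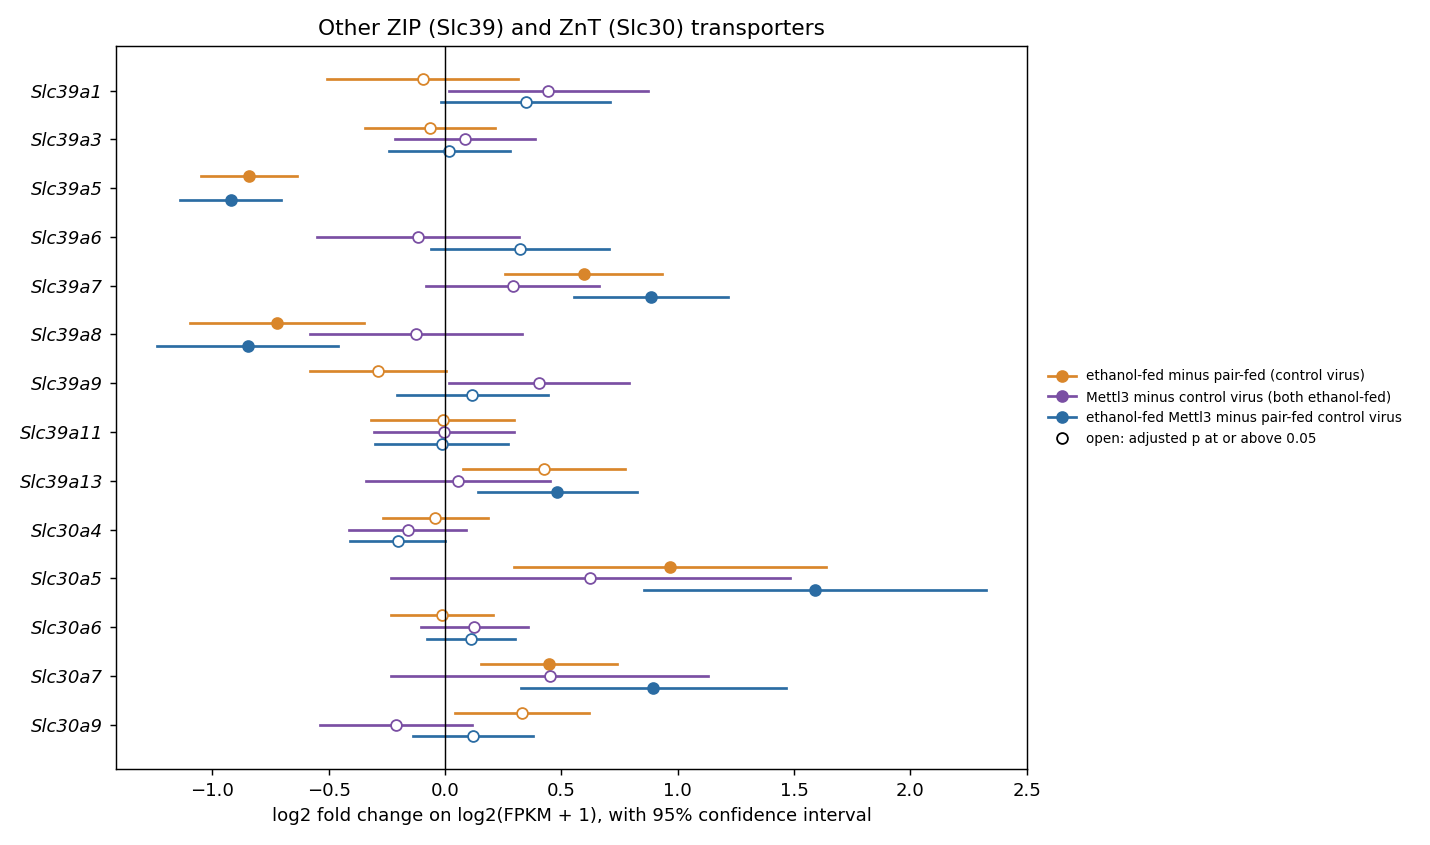
Log2 fold changes on log2(FPKM + 1) of the other ZIP and ZnT transporter genes that passed the filter, with 95% confidence intervals from limma, colours for the 3 comparisons and filled points for an adjusted p below 0.05; a gene below the filter in a comparison has no point there. Slc39a5 and Slc39a8 lie below 0 and Slc39a7, Slc30a5 and Slc30a7 above 0 with ethanol. Slc39a5 passed the filter only through the pair-fed livers.

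Metallothioneins also bind copper, and of 17 genes of copper and manganese handling tested with ethanol 2 were called higher and 7 lower, with a median of -0.28 (all genes: 10.0% higher, 26.0% lower, median -0.14). Sod1, the copper and zinc superoxide dismutase, fell by 0.70 (limma adjusted p = 0.00259), from 1023 ± 60.04 to 627.5 ± 13.5 FPKM (SD, n = 3), and Ccs, which loads copper into that enzyme, fell by 0.80 (adjusted p = 0.00138). Atox1, a copper chaperone, rose by 0.57 (adjusted p = 0.00638), and the metalloreductase gene Steap4 rose by 2.41 (adjusted p = 0.0196). The count lower was 4 with no filter on low values, 3 with median-ratio scaling and without pair-fed liver 1, 2 or 3, and 4 without ethanol-fed liver 3. The count higher was 1 without pair-fed liver 2 or 3 or ethanol-fed liver 3. Between the viruses 0 of the 17 were called by limma or limma-voom, and 0 had an unadjusted p below 0.05, where 723 of all 9706 genes tested did.

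Of 13 glucocorticoid target genes tested with ethanol, 6 were called higher, 1, Pck1, lower (-0.50, adjusted p = 0.0324) and 6 not, with a median of 0.70 (all genes: 10.0% higher, 26.0% lower, median -0.14). Among those called were Tat (1.73, limma adjusted p = 0.00124) and Cdkn1a (3.14, adjusted p = 0.000841), whereas Fkbp5 (0.24, adjusted p = 0.556), Tsc22d3 (0.00, adjusted p = 0.992) and Per1 (0.31, adjusted p = 0.44) were not called. These 3 uncalled genes were picked for naming after their values were seen. The count higher was 3 without pair-fed liver 3, and the count lower was 0 with median-ratio scaling, with no filter, with all 9 libraries in 1 fit and without pair-fed liver 2 or 3 or ethanol-fed liver 2 or 3. Of 11 NRF2 target genes tested, 3 were called higher and 3 lower, among them Hmox1 (1.34, adjusted p = 0.0022) and Gclm (-1.15, adjusted p = 0.00157). The median of that list was 0.14, and its share called lower was close to the 26.0% of all genes. Both NRF2 counts were 1 without pair-fed liver 2 or 3, the count higher was 5 without ethanol-fed liver 1, and the count lower was 1 without ethanol-fed liver 3. Between the viruses 0 genes of either list were called by limma or limma-voom, while 4 glucocorticoid target genes (Pck1, Dusp1, Lpin1 and Fkbp5) and 3 NRF2 target genes (Gstm1, Gstm3 and Ephx1) had an unadjusted p below 0.05. Among all 9706 genes tested in that comparison 723 did. With the Mettl3 virus the mean of Pck1 was higher (749 against 458 FPKM). Those of Dusp1, Lpin1, Fkbp5 and the 3 NRF2 target genes were lower.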

How the data were processed

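RNA sequencing measured 9 mouse liver libraries. The tools and build named, per the submitters' processing notes, are fastp, HISAT2, HTSeq and mm10, without versions; the strand setting and read length are not given in the sources used here. The authors deposited 2 tables of 6 libraries each, sharing the ethanol-fed control-virus libraries, which differ by at most 1.08e-06 in relative terms. Per the file headers they hold FPKM per library, mean normalised counts (signal), and the authors' fold, log2 fold, p-value and q-value columns, named after DESeq2. The tables list 16842 and 16470 genes.

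Groups came from the sample titles, and tables were joined on gene symbol. FPKM was tested as log2(FPKM + 1) with limma 3.58.1 (R 4.3.3; eBayes with trend and robust), keeping genes with 1 FPKM or more in 3 or more libraries, and p-values were adjusted by Benjamini-Hochberg and called below 0.05. The first and second comparisons used their own 6 libraries and the third all 9. A fold on this scale understates the change of low genes. Whole reads recovered from FPKM and the deposited signal (within 0.05 of a whole number for 100% of values) served limma-voom as an alternative and the read counts given. The procedure was also run on counts simulated with the same spread for every gene, a spread not taken from these livers. It recovered 76.3% to 77.6% of 2-fold and 100% of 4-fold changes there. Those shares do not give the recovery in these livers. Named genes outside the 7 are at most 5 per list among those called, except Fkbp5, Tsc22d3, Per1, Pck1, Pim1, Slc39a1, Slc39a9, Dusp1 and Gstm3, chosen after their values were seen; likeness gives the 5 nearest genes. The members and lists were chosen with earlier results of these data known. Alternatives were median-ratio scaling, a pseudocount of 0.1, no filter, plain eBayes, other library sets, the replicate number as a block and leaving out each library.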

Additional observations from a re-analysis of the deposited data

How the results depend on the processing

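The direction of Mt1, Mt2, Slc39a14 and Slc30a10 with ethanol held in every alternative, and the calls of Mt1, Mt2 and Slc30a10 also held; that of Slc39a14 did not, with adjusted p from 0.0255 to 0.0679 over the other settings and from 0.000683 to 0.114 without 1 library. Differences that changed sign were those of Slc30a1 with ethanol without ethanol-fed liver 1 (-0.089, with 0.59 at the other end of the range over the libraries left out), Mt2 between viruses without that liver (-0.042, to 0.87 at the other end), Slc30a10 between viruses without that liver (-0.064, to 0.13) or without Mettl3 liver 3 (-0.031), and Slc39a4 in Mettl3 against pair-fed livers with median-ratio scaling (0.18). The cause was not tested. The number of the 7 genes called lower in Mettl3 against pair-fed livers was 0, and 1 (Slc30a1) with only the libraries of its own groups; leaving out 1 library gave 0 to 1. Leaving out 1 library gave 3 to 5 of the 7 called higher with ethanol and 4 to 5 in Mettl3 against pair-fed livers, and 0 in either direction between the viruses. Over all genes, the 3625 calls with ethanol became 2157, 1538 and 1541 without pair-fed liver 1, 2 and 3, respectively, and 4743, 2392 and 2591 when ethanol-fed liver 1, 2 and 3 were left out in turn. The single call between viruses became 0 to 2 with 1 library left out, 0 with no filter on low values and 3 with all 9 libraries in 1 fit. Where the count was 0, Mettl3 itself was not called. Same-numbered libraries of different groups had deviations that correlated with r from -0.412 to 0.394, above 0.1 in 2 of 9 pairs. Differently numbered libraries reached 0.580 and -0.513, so with 3 livers per group this check cannot tell whether the numbers pair the livers. With the replicate number as a block, 2778 genes were called with ethanol, 0 between viruses and 4472 in Mettl3 against pair-fed livers. Among the 7 genes Slc39a14 with ethanol (limma adjusted p = 0.0679) and Mtf1 in Mettl3 against pair-fed livers (0.0516) were no longer called. The block also moved counts with ethanol in other lists: zinc exporters higher from 2 to 1, copper and manganese genes higher from 2 to 1 and lower from 7 to 4, sinusoidal endothelial markers lower from 6 to 3, Kupffer cell and neutrophil markers higher from 1 to 2 each. The fewest reads behind any level of the 7 genes were 448, for Mtf1 in pair-fed liver 2.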
